A study of Homo sapiens with 16 samples.

Results

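The replication-dependent histone genes were taken as every row of the count table named H1-1 to H1-6, or H2AC, H2BC, H3C or H4C followed by a number. This gave 66 of 59428 rows, made up of 6 H1, 16 H2A, 17 H2B, 13 H3 and 14 H4 genes. Of these, 55 lie in the large histone cluster on chromosome 6 and 11 in the smaller one on chromosome 1. They were measured in 2 ovarian carcinoma cell lines, OVCAR3 (BRCA1 wild type) and UWB1.289 (BRCA1 mutated), each exposed for 96 h to the PARP inhibitor olaparib dissolved in DMSO or to DMSO alone. OVCAR3 received 7.5 µM olaparib and UWB1.289 received 3.5 µM. OVCAR3 was grown in RPMI1640 with serum and insulin whereas UWB1.289 was grown in a mixture of MEGM and RPMI1640 with less serum. Line, BRCA1 status, dose and medium therefore cannot be told apart. Each of the 4 groups held 4 libraries of 5599571 to 7730228 counts, made with a kit that starts cDNA synthesis from an oligo(dT) primer and reads the 3′ end of transcripts.

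Replication-dependent histones are the core histones H2A, H2B, H3 and H4, which form the nucleosome, and the linker histone H1, which binds the DNA between nucleosomes. Their genes are transcribed in S phase, and their mRNAs normally end in a conserved stem-loop bound by SLBP in place of a poly(A) tail. An oligo(dT) primer is therefore a poor match for the regular mRNA, and counts from such libraries can come from polyadenylated histone transcripts or from priming on A-rich sequence inside the transcript. Which of these gave the counts was not tested. In a bulk sample, fewer cells in S phase and less histone RNA per cell cannot be told apart.

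All 66 genes held the stem-loop, 22 to 67 bases after the stop codon in the GENCODE 44 annotation of hg38. Among 19924 protein-coding genes searched in the 150 bases after the stop codon, 0.366% held it, and 1 of the 73 genes with it had no histone name. The sequences below are those of the members on which the results turn, with the stem-loop in capitals, and all are given 5′ to 3′ on the strand of the gene. H4C3 and H1-2 gave the most counts. H2BC21 and H2AC20 start 236 bases apart on opposite strands of chromosome 1.
H4C3 stem-loop, chr6:26104312-26104337, plus strand: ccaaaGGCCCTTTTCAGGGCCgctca
H1-2 stem-loop, chr6:26055739-26055764, minus strand: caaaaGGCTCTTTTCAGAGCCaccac
H2BC21 stem-loop, chr1:149886183-149886208, minus strand: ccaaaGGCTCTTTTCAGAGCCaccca
H2AC20 stem-loop, chr1:149887386-149887411, plus strand: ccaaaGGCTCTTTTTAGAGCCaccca
The H4 genes differed from the other classes in the stem. All 14 carried a GGCCC stem, and 9 of them had the same 16 bases as H4C3, whereas the form of H1-2 and H2BC21 was found in 4 H1, 12 H2A, 11 H2B and 11 H3 genes.

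Some members also hold sequence that an oligo(dT)-primed library could pick up, and these are shown because 2 of them belong to the highest members. H4C3 had the most A-rich stretch of all, with 18 A in 20 bases (capitals) just before its stem-loop, and the next highest member had 13.
H4C3 A-rich stretch, chr6:26104291-26104320, plus strand: AAAAAACAAAAACAAAAAAAcccaaaggcc
The polyadenylation hexamer AATAAA (capitals) lay within 30 bases after the stem-loop in 4 members, H1-2, H2BC5, H2AC18 and H2AC19. The hexamer did not go with high counts in all of them. Over the 16 libraries H1-2 had 17839 counts and H2BC5 1465, whereas H2AC18 had 3 and H2AC19 none. The hexamer was found in the 150 bases after the stop codon in 13.9% of protein-coding genes. That window differs from the one used for the members, so no excess among the members can be read from it.
H1-2 after the stem-loop, chr6:26055714-26055743, minus strand: accactgatctcAATAAAagagctggataa
H2BC5 after the stem-loop, chr6:26158603-26158632, plus strand: acgcatgttttcAATAAAtgagttgtaatc
For 14 members the annotation holds a transcript that runs more than 100 bases past the stem-loop. These are H2AC1, H2AC6, H2BC4, H2BC5, H2BC6, H2BC11, H2BC15, H2BC18, H2BC21, H3C6, H3C10, H4C8, H4C14 and H4C15. The other 52, among them H4C3, H2AC20 and all 6 H1 genes, are annotated as ending at most 18 bases after it.

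The histone genes gave 84956 of 103952457 counts, or 0.0817%. In single libraries they made up 0.143% to 0.177% of counts in OVCAR3 with DMSO, 0.0598% to 0.0965% in OVCAR3 with olaparib, 0.0441% to 0.0760% in UWB1.289 with DMSO and 0.0271% to 0.0469% in UWB1.289 with olaparib. H4C3 alone held 57.6% of all histone counts and H1-2 another 20.998%, and the 10 highest members together held 92.9%. At the other end, 11 members had no count in any library (4 H3, 3 H2A, 2 H4, 1 H1 and 1 H2B). A total of 26 members had enough counts to be tested in at least 1 comparison (5 H1, 6 H2A, 9 H2B, 3 H3 and 3 H4), and the other 40 had at most 81 counts over the 16 libraries. The counts thus describe a minority of the family, and the H3 class is nearly unseen. Some members with no count share most of their sequence with other genes. H3C13, H3C14, H3C15, H2AC19 and H4C15 have at least 71.9% of their 50-base words (stretches of 50 bases) in common with others. The counting may have lost their reads, so their zeros do not show that they were absent. H2AC7 shares 1.5%, and H3C4, H2AC1, H2BC3, H1-6 and H4C7 share no such word.

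Levels are given as CPM (counts relative to library size, scaled by TMM), and fold changes come from edgeR's quasi-likelihood test with Benjamini-Hochberg adjustment over all genes tested. A gene passed at an adjusted p below 0.1, and was called differentially expressed if its fold change was also beyond 2 in either direction with an average normalised count above 10. By class, H4 held the largest share of histone counts in every group, from 57.2% ± 7.75 (SD, n = 4) in OVCAR3 with olaparib to 66.2% ± 3.16 in UWB1.289 with DMSO. H1 followed with 19.0% ± 2.12 to 27.5% ± 3.60, and H3 contributed 0.842% ± 0.338 to 1.82% ± 0.841. Expressed per kilobase of annotated exons, the H4 share was 71.1% ± 2.55 to 77.0% ± 2.51. The kit reads 3′ ends, so counts need not grow with transcript length, and this scale can favour the short H4 genes. The H2B share in UWB1.289 was 4.02% ± 0.835 with DMSO and 11.6% ± 3.09 with olaparib, and the H4 share there was 66.2% ± 3.16 and 57.3% ± 3.60.

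The H4 and H1 classes were each carried by 1 gene. H4C3 made up 91.9% to 98.8% of H4 counts in every library, and H1-2 made up 89.3% to 94.8% of H1 counts in OVCAR3 and 69.3% to 82.0% in UWB1.289. No H2A or H2B gene dominated in this way: H2AC6 gave 51.9% ± 3.67 of H2A counts in OVCAR3 with DMSO but 16.3% ± 5.75 in UWB1.289 with DMSO. Per kilobase of the transcript that ends at the stem-loop, the mean level over the 16 libraries was 1148 CPM for H4C3, 233 for H1-2, 45.0 for H2AC6, 30.2 for H2AC20, 30.1 for H4C8, 29.1 for H2BC5, 23.6 for H2BC4, 19.5 for H2AC14, 17.9 for H2BC8 and 17.9 for H1-4. For the genes annotated past the stem-loop this scale depends on the length taken, since H4C8 falls to 5.70 CPM per kilobase of all its annotated exons. H2BC21, at a mean of 17.1 CPM, has no value on this scale. Its only annotated transcript is 2224 bases long and runs 1729 bases past the stem-loop. The limit that 3′ reads set on a scale per kilobase holds here too.

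**Figure D1:**
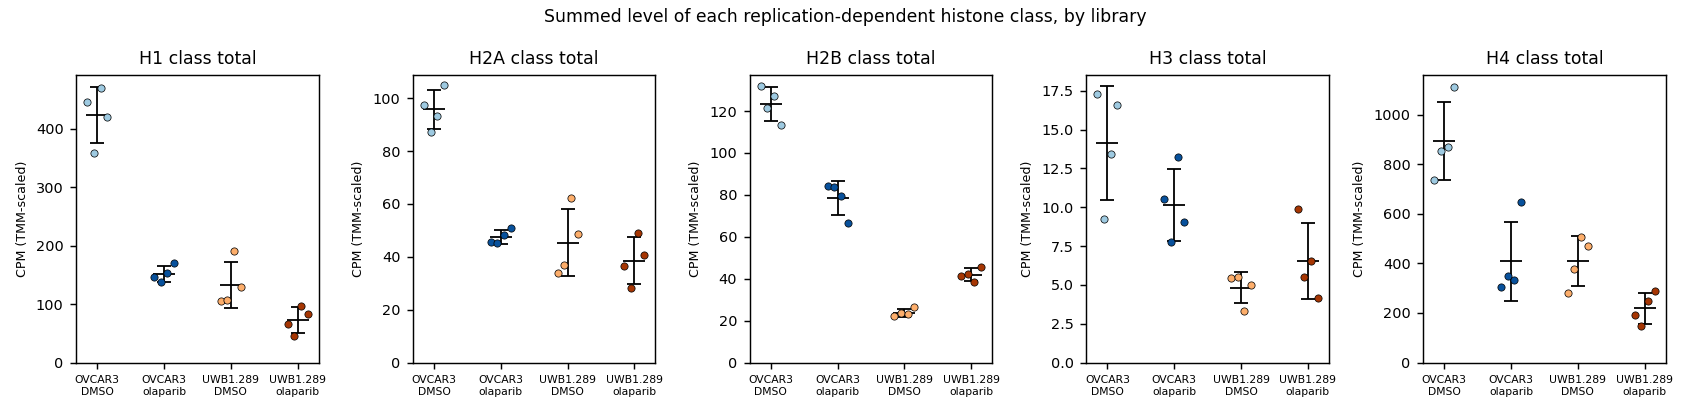
Summed TMM-scaled CPM of each histone class in each library (points, 4 per group), with the mean and SD (bars). With olaparib the H1 total was lower in both lines, whereas the H2B total was lower in OVCAR3 and higher in UWB1.289.

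The class totals, which are sums over members and are given with no test, differed by class and line. The H1 total went from 423 ± 48.2 CPM (SD, n = 4) with DMSO to 152 ± 14.0 CPM with olaparib in OVCAR3 and from 133 ± 39.6 to 72.8 ± 21.6 CPM in UWB1.289, log2 ratios of -1.48 and -0.87. The H4 total went from 893 ± 158 to 408 ± 160 CPM and from 409 ± 101 to 219 ± 62.9 CPM. The log2 ratios were -1.13 and -0.90, the second of which was 0.60 without H4C3. In UWB1.289 the H4 groups overlapped, with 281 CPM in the lowest DMSO library and 290 CPM in the highest olaparib library. The H2A total went from 95.8 ± 7.45 to 47.5 ± 2.63 CPM in OVCAR3 (ratio -1.01), whereas in UWB1.289 it was 45.4 ± 12.8 and 38.6 ± 8.80 CPM and the groups overlapped. The H2B total went from 123 ± 8.07 to 78.4 ± 8.18 CPM in OVCAR3 and from 23.8 ± 1.88 to 41.9 ± 3.02 CPM in UWB1.289, ratios of -0.65 and 0.81, and the groups were apart in both lines. The H3 total stayed below the other classes in every group. It was 14.1 ± 3.67 and 10.1 ± 2.33 CPM in OVCAR3 and 4.81 ± 1.003 and 6.52 ± 2.45 CPM in UWB1.289. The H3 groups overlapped in both lines.

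Most of the histone genes that could be tested passed lower with olaparib in OVCAR3. Of 23 members tested there, 14 passed lower and 0 passed higher, against 16% of all 13031 genes lower and 15.5% higher. The median log2 fold change was -0.90 over the members and -0.01 over all genes. The count of 0 higher became 1 with the replicate block (H2BC15) and without DMSO replicate 1 (H2BC15), olaparib replicate 3 (H2BC11) or olaparib replicate 4 (H2BC15), at adjusted p values of 0.0699 to 0.09996 (edgeR). The called genes numbered 11, all of them lower (5.22% of all genes were called). All 3 H1 genes tested, 4 of 5 H2A, 4 of 9 H2B, 1 of 3 H3 and 2 of 3 H4 genes passed lower. In UWB1.289 7 of the 23 members tested passed lower and 7 passed higher, against 6.1% of 12748 genes lower and 7.77% higher. The members' median there was 0.38 and that of all genes 0.00. Of 8 called, 5 were higher and 3 lower (2.21% of all genes were called). There the H1 genes and the H2B genes went apart: 4 of 5 H1 genes passed lower and 0 higher, whereas 5 of 8 H2B genes passed higher and 0 lower.

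The gene with most counts, H4C3, encodes the core histone H4. It stood at 702, 825, 841 and 1078 CPM in OVCAR3 with DMSO and at 287, 335, 317 and 625 CPM with olaparib. In UWB1.289 the values were 272, 370, 497 and 464 CPM with DMSO and 175, 137, 239 and 278 CPM with olaparib. In OVCAR3 the groups did not overlap, even though olaparib replicate 4 was far above the other 3, and in UWB1.289 the highest olaparib library passed the lowest DMSO library. The log2 fold change was -1.14 (SE 0.18, adjusted p = 7.35e-05, edgeR quasi-likelihood test) in OVCAR3 and -0.95 (SE 0.17, adjusted p = 0.000739) in UWB1.289. The difference between the lines was 0.19 (SE 0.28, adjusted p = 0.783).

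H1-2, a linker histone found in most somatic cells, gave 422, 333, 437 and 375 CPM in OVCAR3 with DMSO and 135, 128, 142 and 155 CPM with olaparib. In UWB1.289 it gave 78.5, 76.4, 132 and 91.3 CPM with DMSO and 53.9, 34.8, 78.7 and 57.8 CPM with olaparib. The OVCAR3 groups were far apart, while in UWB1.289 a single olaparib library reached into the DMSO range. On the log2 scale H1-2 fell by 1.48 (SE 0.09, adjusted p = 4.12e-10, edgeR) with olaparib in OVCAR3. Its fall in UWB1.289 was -0.74 (SE 0.18, adjusted p = 0.00923). The fall was smaller in UWB1.289 by 0.74 (SE 0.22, adjusted p = 0.0371), but with DESeq2 the adjusted p values of the UWB1.289 change and of this difference were 0.107 and 0.164, and without UWB1.289 olaparib replicate 3 that of the difference was 0.137.

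H1-3 and H1-4, also linker histones, passed lower in both lines. H1-4 was at 20.4, 16.2, 27.0 and 32.9 CPM in OVCAR3 with DMSO and at 8.83, 7.78, 8.52 and 12.4 CPM with olaparib, and it fell by 1.36 on the log2 scale (SE 0.20, adjusted p = 4.42e-05, edgeR). In UWB1.289 it was at 11.7, 10.7, 27.2 and 15.3 CPM with DMSO and at 5.44, 2.66, 8.16 and 9.63 CPM with olaparib, a fall of 1.30 (SE 0.30, adjusted p = 0.00607). The groups did not overlap in either line. For H1-3 the log2 fold change was -1.70 (SE 0.37, adjusted p = 0.00220) in OVCAR3. That in UWB1.289 was -1.30 (SE 0.27, adjusted p = 0.00252). H1-1 had no count in OVCAR3 with DMSO and 2 counts in 1 olaparib library. In UWB1.289 it stood at 6.32, 3.50, 9.40 and 7.90 CPM with DMSO and 1.98, 3.37, 2.56 and 4.28 CPM with olaparib, and fell by 1.15 (SE 0.30, adjusted p = 0.0178). H1-5 had no count in the 8 OVCAR3 libraries. Its change in UWB1.289 was -0.85 (SE 0.33, adjusted p = 0.121), and with the replicate number as a block the adjusted p was 0.0797. H1-6, the testis form, had no count.

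**Figure D2:**
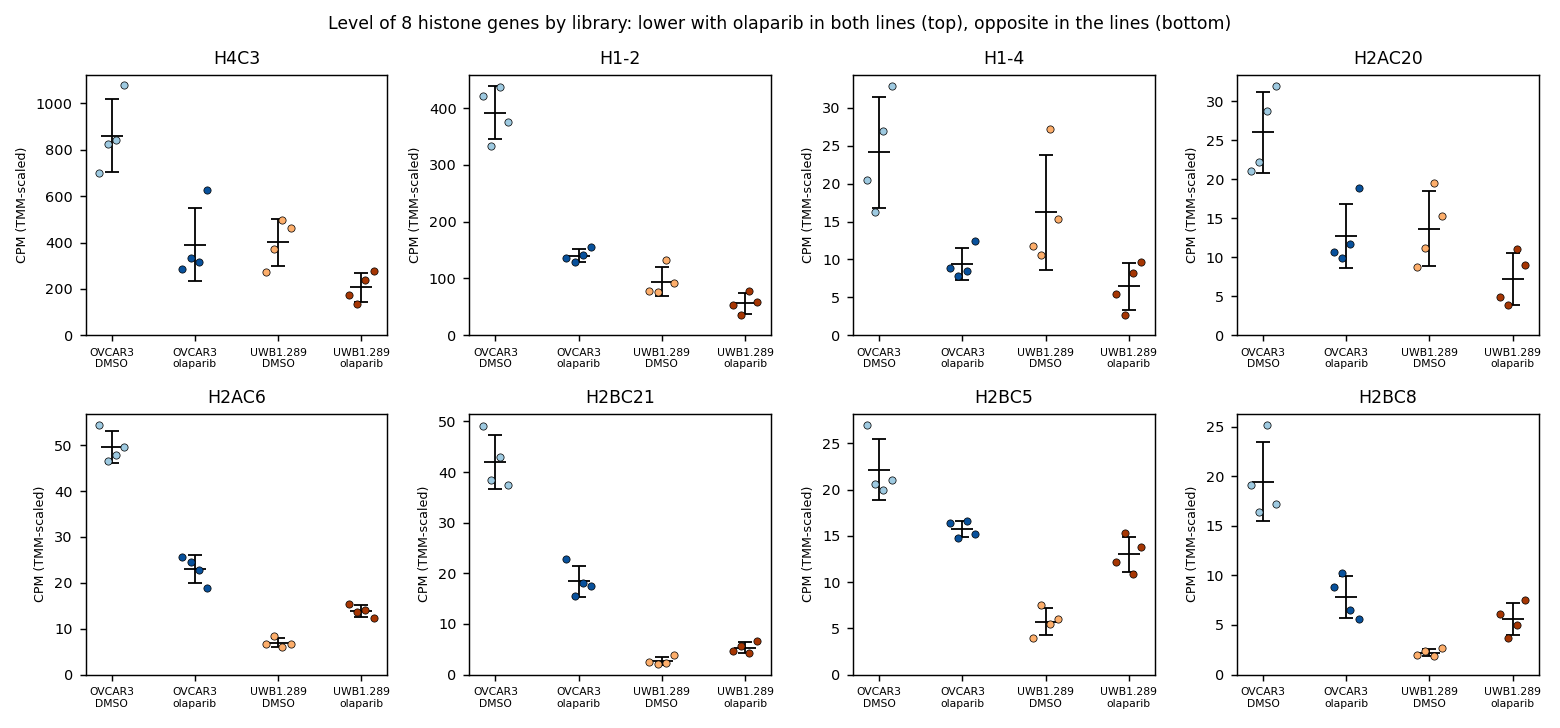
TMM-scaled CPM of 8 histone genes in each library (points, 4 per group) with the mean and SD (bars), each panel with its own axis from 0. H4C3, H1-2, H1-4 and H2AC20 passed lower with olaparib in both lines, and H2AC6, H2BC21, H2BC5 and H2BC8 passed lower in OVCAR3 and higher in UWB1.289.

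Of 21 members tested in both lines, 6 passed lower in both (H1-2, H1-3, H1-4, H2AC14, H2AC20 and H4C3) and 4 passed lower in OVCAR3 and higher in UWB1.289 (H2AC6, H2BC21, H2BC5 and H2BC8). Of the 11670 genes tested in both lines, 2.64% passed lower in both and 0.463% lower in OVCAR3 and higher in UWB1.289. Among the 6, the UWB1.289 call of H2AC14 was lost under 7 of its 13 alternatives. The test of the difference itself, an interaction term over the 16 libraries, was passed by 8 of 26 members, and all 8 were more positive in UWB1.289, against 5.09% of 14243 genes more positive and 5.83% more negative. Of the 8, 7 were called (3.65% of all genes).

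H2AC6, which codes for H2A, was the highest H2A member. It gave 54.4, 46.5, 47.8 and 49.6 CPM in OVCAR3 with DMSO and 25.7, 24.6, 22.9 and 18.9 CPM with olaparib. In UWB1.289 it gave 6.62, 8.32, 6.05 and 6.59 CPM with DMSO and 15.5, 13.7, 14.1 and 12.2 CPM with olaparib. No library crossed into the other group in either line. The log2 fold change was -1.11 (SE 0.11, adjusted p = 5.91e-07, edgeR) in OVCAR3 and 1.01 (SE 0.17, adjusted p = 0.000403) in UWB1.289, and these differed by 2.12 (SE 0.19, adjusted p = 5.59e-09). An unnamed gene overlaps its exons on the same strand in the annotation, and reads shared with it cannot be told apart.

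Of the H2B genes, H2BC21, H2BC5 and H2BC8 passed lower in OVCAR3 and higher in UWB1.289. H2BC21 was at 49.1, 38.4, 42.9 and 37.5 CPM in OVCAR3 with DMSO and at 22.8, 15.6, 18.03 and 17.5 CPM with olaparib. In UWB1.289 it was at 2.41, 2.16, 2.23 and 3.82 CPM with DMSO and at 4.61, 5.68, 4.16 and 6.57 CPM with olaparib. The groups were apart in both lines, although the UWB1.289 values rest on 13 to 43 counts per library. The log2 fold changes were -1.18 (SE 0.13, adjusted p = 1.60e-06, edgeR) and 0.97 (SE 0.28, adjusted p = 0.0325), a difference of 2.14 (SE 0.28, adjusted p = 4.05e-06). Without UWB1.289 olaparib replicate 4 the adjusted p of the rise was 0.127.

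H2BC8 was the member with the largest difference between the lines among those that passed, 2.66 on the log2 scale (SE 0.34, adjusted p = 3.76e-06, edgeR). It was at 19.1, 16.4, 25.1 and 17.2 CPM in OVCAR3 with DMSO and at 8.83, 10.3, 6.53 and 5.605 CPM with olaparib, and in UWB1.289 at 1.955, 2.33, 1.91 and 2.63 CPM with DMSO and at 6.09, 3.73, 4.96 and 7.49 CPM with olaparib. Again no library crossed over. H2BC5 fell by 0.49 (SE 0.14, adjusted p = 0.0126) in OVCAR3 and rose by 1.19 (SE 0.20, adjusted p = 0.000383) in UWB1.289. Its UWB1.289 libraries were at 3.91, 7.49, 5.42 and 6.06 CPM with DMSO and at 12.2, 15.3, 10.9 and 13.8 CPM with olaparib, with no overlap.

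The remaining members differed between the lines in part. H4C8 fell by 1.18 in OVCAR3 (SE 0.16, adjusted p = 2.03e-05, edgeR), its change in UWB1.289 was 0.56 (SE 0.23, adjusted p = 0.140), and the difference was 1.74 (SE 0.28, adjusted p = 8.07e-05). H4C5 rose by 1.82 in UWB1.289 (SE 0.41, adjusted p = 0.00584) from 3 to 8 counts per library with DMSO, and its change in OVCAR3 was 0.23 (SE 0.30, adjusted p = 0.630). The difference for H4C5 was 1.60 (SE 0.51, adjusted p = 0.04997). Its adjusted p was 0.105 with no filter on low counts, and 0.107 to 0.127 when any of 4 libraries was left out (UWB1.289 DMSO replicates 1 and 2, UWB1.289 olaparib replicate 1 and OVCAR3 DMSO replicate 1). H3C10 differed by 2.08 (SE 0.60, adjusted p = 0.0289) and had 2 to 4 counts per library in UWB1.289 with DMSO. In UWB1.289 H2BC11 rose by 1.40 (SE 0.41, adjusted p = 0.0336) and H2BC15 by 0.91 (SE 0.33, adjusted p = 0.0842), while their OVCAR3 changes were 0.42 (adjusted p = 0.244) and 0.68 (adjusted p = 0.160). Without UWB1.289 DMSO replicate 4 the adjusted p of H2BC11 was 0.119. The rise of H2BC15 was lost with DESeq2 (adjusted p = 0.134), with all 16 libraries in 1 fit (0.107) and without any of 6 of the 8 libraries (up to 0.226).

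H2A genes other than H2AC6 fell or did not pass. H2AC20 fell by 1.02 in OVCAR3 (SE 0.19, adjusted p = 0.000429, edgeR), from 21.1, 22.2, 28.7 and 32.0 CPM to 10.7, 9.96, 11.6 and 18.9 CPM. In UWB1.289 it fell by 0.90 (SE 0.27, adjusted p = 0.0372), from 8.72, 11.2, 19.6 and 15.3 CPM to 4.94, 3.90, 11.04 and 9.02 CPM, with overlap between the groups. Without UWB1.289 DMSO replicate 3 or replicate 4 its adjusted p was 0.135 or 0.102. The log2 fold change of H2AC14 was -1.33 (SE 0.37, adjusted p = 0.0112) in OVCAR3 and -0.75 (SE 0.28, adjusted p = 0.0995) in UWB1.289. Without OVCAR3 olaparib replicate 4 the first was -2.02 (adjusted p = 4.03e-05), and without UWB1.289 DMSO replicate 3 or olaparib replicate 2 the second was -0.48 or -0.49. The UWB1.289 call was lost with DESeq2 (adjusted p = 0.395), with all 16 libraries in 1 fit (0.115) and without any of 5 of the 8 libraries. It shares 66.3% of its 50-base words with H2AC13, so that the counting may have split its reads. H2AC8 fell by 0.90 in OVCAR3 (SE 0.29, adjusted p = 0.0306; 0.123 without DMSO replicate 4) and its change in UWB1.289 was 0.38 (adjusted p = 0.579).

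Among the rest, H2BC7 had a log2 fold change of -1.293 in OVCAR3 (SE 0.39, adjusted p = 0.0203, edgeR). Its change in UWB1.289 was -1.16 (SE 0.58, adjusted p = 0.232), and with the replicate block the adjusted p was 0.0548. Without UWB1.289 olaparib replicate 3 its change there was -2.46 (adjusted p = 0.0187). H3C6 fell by 0.89 in OVCAR3 (SE 0.31, adjusted p = 0.0400), a call that was lost with all 16 libraries in 1 fit (0.114) and without DMSO replicate 1 or 3. H2BC4, with 18.5 ± 1.74 CPM in OVCAR3 with DMSO (SD, n = 4), had a log2 fold change of -0.16 there (SE 0.18, adjusted p = 0.574) and of 0.18 in UWB1.289 (SE 0.27, adjusted p = 0.739). H4C8 and H2BC4 overlap genes on the opposite strand in the annotation, and no source used here says whether the counting used strand. H2AC11 changed by -0.15 (adjusted p = 0.779) and 0.52 (adjusted p = 0.579). H3C8 changed by 0.36 (adjusted p = 0.489) and 0.45 (adjusted p = 0.599). H4C11, 92.1% of whose 50-base words occur in H4C12, and H3C7 were too low to test, with 81 and 58 counts over 16 libraries.

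**Figure D3:**
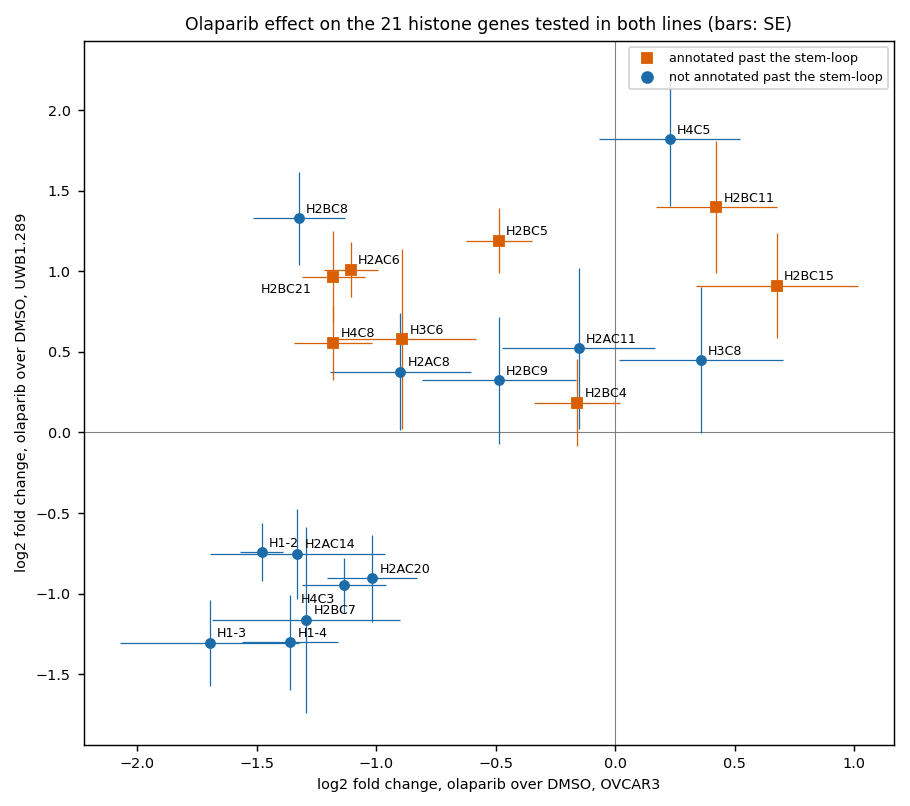
Log2 fold change with olaparib in OVCAR3 (horizontal) against UWB1.289 (vertical) for the 21 histone genes tested in both lines, with SE bars, squares marking genes annotated past the stem-loop. The H1 genes, H4C3, H2AC20, H2AC14 and H2BC7 sit below 0 on both axes, and no square lies below 0 on the vertical axis.

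The members were also grouped by annotated end, a grouping chosen after the values were seen and given with no test. It is not separate from class, since all H1 genes lie in the set not annotated past the stem-loop. In UWB1.289, 8 members annotated past the stem-loop were tested, and 5 passed higher and 0 lower (7.77% and 6.1% of all genes). The 5 were H2AC6 and the H2B genes H2BC5, H2BC11, H2BC15 and H2BC21. The median log2 fold change of the 8 was 0.94. Of the 15 members not annotated past the stem-loop, 7 passed lower and 2 higher (H2BC8 and H4C5), with a median of -0.75. In OVCAR3 5 of 9 and 9 of 14 passed lower (16% of all genes), with medians of -0.49 and -1.08. The summed level of the 14 members annotated past the stem-loop was 177.5 ± 15.2 CPM (SD, n = 4) in OVCAR3 with DMSO, 103.8 ± 6.91 with olaparib, 30.4 ± 2.57 in UWB1.289 with DMSO and 56.7 ± 4.50 with olaparib. That of the 50 others without H4C3 and H1-2 was 118.7 ± 16.6, 60.6 ± 6.69, 90.2 ± 28.7 and 59.0 ± 16.1 CPM. The first sum kept its groups apart in both lines, while the second overlapped in UWB1.289. There it was 66.9, 70.4, 129.3 and 94.1 CPM with DMSO and 54.8, 37.98, 71.4 and 71.8 CPM with olaparib.

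H2A and H2B genes often lie head to head and share a promoter region, and 11 such pairs were found, 194 to 251 bases between their starts. In 4 pairs both members were tested in both lines. H2BC21 rose in UWB1.289 while its partner H2AC20 fell there, and both fell in OVCAR3. In the same comparison H2AC6 rose and its partner H2BC4 changed by 0.18 (adjusted p = 0.739, edgeR), and H2BC8 rose and its partner H2AC8 changed by 0.38 (adjusted p = 0.579). In the remaining pair H2BC11 rose by 1.40 in UWB1.289 (adjusted p = 0.0336, edgeR) and its partner H2AC11 changed by 0.52 (adjusted p = 0.579). Neither H2BC11 nor H2AC11 passed in OVCAR3. The difference within a pair was not tested. The octamer ATTTGCAT, the binding motif of the transcription factor OCT1, was searched on both strands of the RefSeq promoter windows (GRCh38.p14, 250 bases before to 50 after the start), which were at hand for 61 members. It was found in 11 of 15 H2A and 14 of 17 H2B windows, against 2.2% of 27305 genes. It is shown for the pair that moved apart (capitals), where 1 match serves both genes.
H2BC21 promoter, chr1:149886710-149886739, minus strand: tcggagccctaATTTGCATaaggtggttat
The H1 box AAACACA was found in 6 of 6 H1 windows (6.9% of all genes), 2 of 11 H3, 1 of 15 H2A and no H2B or H4 window, and it is shown for H1-2 and H1-4, both of which fell in both lines.
H1-2 promoter, chr6:26056571-26056600, minus strand: tgaggtggaacAAACACAacttgggagcag
H1-4 promoter, chr6:26156201-26156230, plus strand: tgaggtgtaacAAACACAactcgggatccg
CCAAT was found in all H1, H2A, H2B and H3 windows and in 3 of 12 H4 windows, against 39.7% of all genes.

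With DMSO, most members were lower in UWB1.289 than in OVCAR3. Of 26 tested, 17 passed lower and 3 higher, against 40.1% of 13366 genes lower and 39.8% higher, and 18 were called (38.3% of all genes). The median log2 difference was -1.71 over the members and -0.02 over all genes. H2BC21 was lower by 3.95 (SE 0.18, adjusted p = 1.49e-18, edgeR), H2BC12 by 3.64 (SE 0.45, adjusted p = 1.64e-08), H3C10 by 3.31 (SE 0.43, adjusted p = 4.52e-08), H2BC8 by 3.13 (SE 0.22, adjusted p = 6.11e-14) and H2AC6 by 2.85 (SE 0.13, adjusted p = 4.65e-18) on the log2 scale. H2BC12 shares 57.2% of its 50-base words with other genes. Both H2BC12 and H3C10 had only 2 to 4 counts per library in UWB1.289 with DMSO. They passed the filter on low counts through OVCAR3, where they were higher, so the size of their differences is not firm. The log2 difference of H2AC11 was -1.964 (SE 0.42, adjusted p = 0.000109), that of H1-2 -2.05 (SE 0.12, adjusted p = 4.59e-16) and that of H4C3 -1.11 (SE 0.12, adjusted p = 1.74e-09). H1-4 was lower by 0.59 (SE 0.21, adjusted p = 0.0132), with an adjusted p of 0.210 by DESeq2 and 0.105 without OVCAR3 DMSO replicate 4, and it was lower by 0.93 without UWB1.289 DMSO replicate 3. All 8 members that passed among the 9 annotated past the stem-loop were lower.

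Only H2AC14, H1-1 and H1-5 passed higher in UWB1.289. H2AC14 was at 12.8, 13.7, 29.0 and 20.2 CPM there against 5.11, 4.19, 5.49 and 5.72 CPM in OVCAR3, a log2 difference of 1.87 (SE 0.22, adjusted p = 1.10e-08, edgeR). H1-1 had 21 to 60 counts per library in UWB1.289 with DMSO and none in OVCAR3 with DMSO, which makes it at least 14.4-fold higher against a floor of 3 counts per library. H1-5 had 24 to 52 counts against none, at least 11.2-fold higher. On the same stretch of chromosome 6, H4C13, H3C12 and H2AC17 also had no count in OVCAR3, with 24, 5 and 9 counts over the 8 UWB1.289 libraries, whereas H2AC16 had 4 and H3C11 had 2 counts in OVCAR3. H2BC17, next to H2AC17, gave 6 counts with DMSO and 2 with olaparib in OVCAR3, against 1 and 3 in UWB1.289. Elsewhere on chromosome 6, H3C3 also had no count in OVCAR3, with 30 counts with DMSO and 14 with olaparib in UWB1.289. H4C6 had no count in OVCAR3 either, and 6 over the 16 libraries. All of these counts are too low to compare.

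**Figure D4:**
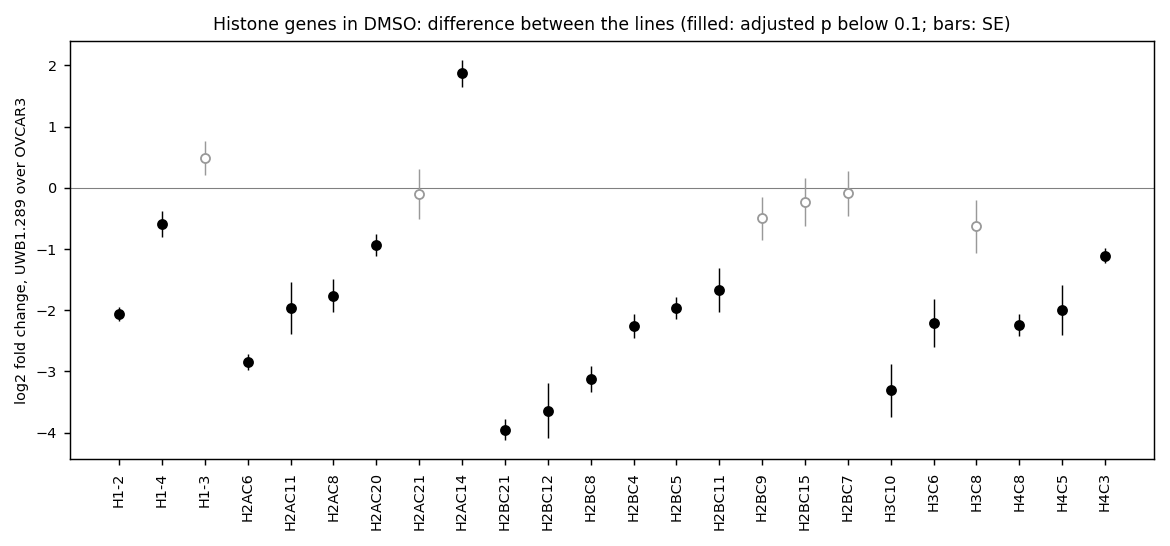
Log2 fold change of UWB1.289 over OVCAR3 with DMSO for 24 of the 26 histone genes tested, ordered by class, with SE bars and filled points for adjusted p below 0.1. H1-1 and H1-5 are left out because they had no count in OVCAR3 with DMSO. H2AC14 is the only filled point above 0.

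Genes that act on histone mRNA or carry histones mostly did not pass with olaparib. Of 24 genes for transcription, processing and decay of histone mRNA, 4 passed higher with olaparib and 0 lower in OVCAR3, where 15.5% of all genes passed higher and 16% lower. Among them was ERI1, an exonuclease that trims the stem-loop, by 0.69 (SE 0.17, adjusted p = 0.00429, edgeR). In UWB1.289, 1 passed higher and 2 lower (7.77% and 6.1% of all genes). Among the lower was CPSF3, the nuclease that cuts histone pre-mRNA, by -0.36 (SE 0.11, adjusted p = 0.0346). SLBP changed by 0.08 (adjusted p = 0.756) and 0.00 (adjusted p = 0.989). With DMSO SLBP was higher in UWB1.289 than in OVCAR3 by 1.37 (SE 0.10, adjusted p = 5.56e-13), and NPAT, the coactivator of histone genes in S phase, by 1.05 (SE 0.11, adjusted p = 6.10e-10). Of 20 histone chaperones, 7 passed higher and 0 lower in OVCAR3 (15.5% and 16% of all genes), such as ASF1B, which hands H3 and H4 on to the assembly factors, by 0.59 (SE 0.11, adjusted p = 0.000431). In UWB1.289, 1 passed lower (SSRP1, by -0.31, SE 0.09, adjusted p = 0.0239) and 0 higher (6.1% and 7.77% of all genes).

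Of 22 genes of S phase, 9 passed higher and 0 lower in OVCAR3, where 15.5% of all genes passed higher and 16% lower, with CCNE1 (cyclin E1) up by 0.96 (SE 0.09, adjusted p = 7.54e-08, edgeR) and CDT1, a replication licensing factor, by 0.71 (SE 0.12, adjusted p = 0.000135). In UWB1.289, 0 passed higher and 11 lower, against 7.77% and 6.1% of all genes, with TYMS (thymidylate synthase) at -0.43 (SE 0.09, adjusted p = 0.00296) and PCNA, the sliding clamp, at -0.37 (SE 0.09, adjusted p = 0.00661). For 13 of 22 the difference passed, all more negative in UWB1.289 (5.83% of all genes), while all 8 histone genes that passed it were more positive (5.09%). Of 10 genes of G2 and mitosis, 8 passed higher in OVCAR3 (15.5% of all genes) and 0 passed in UWB1.289. The part of these shifts in the histone results was not tested.

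Histone genes expressed outside S phase mostly have mRNAs with a poly(A) tail. A list of 14 histone genes outside the member rule was looked at, and 12 were tested. The mRNA ends of the listed genes were not checked, so the list, H2AW included, may hold genes with a stem-loop mRNA. In OVCAR3 6 passed lower and 1 higher (16% and 15.5% of all genes), with H1-10 at -0.74 (SE 0.10, adjusted p = 9.26e-06, edgeR) and MACROH2A1 at 0.34 (SE 0.07, adjusted p = 0.00182). In UWB1.289, 2 passed lower and 1 higher (6.1% and 7.77% of all genes), the last being H2AW at 0.63 (SE 0.14, adjusted p = 0.00558). The change of H2AW differed between the lines by 1.38 (SE 0.23, adjusted p = 0.000185).

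The lines were checked against markers. All 7 markers of ovarian carcinoma (PAX8, EPCAM, KRT8, KRT18, KRT19, MUC16 and WT1) were detected in OVCAR3. In UWB1.289 with DMSO 6 were, and WT1 was at 0. With olaparib 6 of the 7 passed lower in OVCAR3 (16% of all genes). Their summed level was 4364 to 4728 CPM in OVCAR3 with DMSO, 2547 to 2899 with olaparib, 6697 to 7190 in UWB1.289 with DMSO and 5234 to 6348 with olaparib. Of 5 markers of leukocytes, endothelium and fibroblasts (PTPRC, PECAM1, COL1A1, COL1A2 and COL3A1), COL3A1 was at 0 throughout and PECAM1 in OVCAR3 with DMSO. Their sum was 21.5 to 30.9, 31.7 to 39.5, 53.1 to 72.3 and 37.7 to 45.3 CPM in the same order of groups, and their part in the histone results was not tested.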

How the data were processed

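The deposited table held raw read counts per gene for 16 QuantSeq 3′ libraries, made from single-end reads. According to the methods and processing notes, the authors used BBDuk for trimming, STAR 2.7.9a for alignment to hg38 and featureCounts 2.0.0 for counting on an earlier GENCODE release. The settings for strand and for reads with several matches are not given in the sources used here. The experiment was repeated 4 times according to the design text, which does not say whether from separate cultures. If not, p-values measure only the spread between these libraries, which may be technical. No pair of libraries within a group was identical.

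The main test was the quasi-likelihood test of edgeR 4.0.16 in R 4.3.3 on TMM-scaled counts after filterByExpr, adjusted by Benjamini-Hochberg over all genes, with olaparib against DMSO per line, the lines with DMSO, and an interaction. DESeq2 1.42.0, its size factors, no filter, a replicate block, all 16 libraries and each library left out were alternatives. The scripts were tested on simulated data. Deviations of log CPM from the group mean were correlated between DMSO and olaparib libraries of a line over 9536 genes. For same-numbered libraries these correlations were 0.133 to 0.224 in UWB1.289 and 0.035 to 0.165 in OVCAR3. For libraries of different number they reached 0.157 and 0.135, so it is not clear that the numbers pair the libraries. The main test did not use the replicate numbers. Coordinates are from GENCODE 44 and promoters from RefSeq. Genes named are the 4 highest members of each class, every called member, and up to 3 genes per list by adjusted p. Genes outside that rule (SLBP with olaparib, H2BC15, the marker genes and the low or absent members) were named after their values were seen. The members and lists were chosen with earlier results of these data known. Counts limit precision for most members. A gene of the lists is not reported here.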

Additional observations from a re-analysis of the deposited data

Results flagged for a closer look

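The olaparib response differed between the lines in 8 histone genes by the interaction test. The difference (UWB1.289 minus OVCAR3, log2) was 0.74 for H1-2, 2.12 for H2AC6, 2.14 for H2BC21, 1.68 for H2BC5, 2.66 for H2BC8, 2.08 for H3C10, 1.60 for H4C5 and 1.74 for H4C8 (edgeR interaction, adjusted p = 5.59e-09 to 0.04997).

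In 5 of 112 group values a library lay far from the other 3 of its group, and chance flags about 1 in 20 groups. H4C3 stood at 625 CPM in OVCAR3 olaparib replicate 4 against 287 to 335 in the others, and with it the H4 total at 646 against 303 to 349. H2BC21 was at 3.82 CPM in UWB1.289 DMSO replicate 4 against 2.16 to 2.41, H2BC5 at 27.0 in OVCAR3 DMSO replicate 1 against 19.9 to 21.03, and H4C5 at 3.95 in UWB1.289 olaparib replicate 1 against 2.24 to 2.31.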

How the results depend on the processing

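Of 1303 recomputed values of named members, 30 changed sign, none for a member that had passed, 25 lost and 21 gained the test. The only sign change with all libraries kept was H2BC7 in the difference between the lines, -0.088 with the replicate block. Leaving out 1 library changed the sign of 10 values that had not passed, whose ranges were -0.22 to 0.42 (H1-4), -0.16 to 0.37 (H2AC20), -1.16 to 0.51 (H2BC7), -0.16 to 0.49 (H3C8) and -0.012 to 0.51 (H4C3) for the difference between the lines, -0.38 to 0.061 (H2AC11) and -0.44 to 0.19 (H2BC12) in OVCAR3, -0.0016 to 0.27 (H2BC4) and -0.13 to 1.11 (H3C6) in UWB1.289, and -0.42 to 0.14 (H2BC7) between the lines with DMSO. The number of members passing was 12 to 16 in OVCAR3, 11 to 16 in UWB1.289, 20 to 22 between the lines with DMSO and 7 to 9 for the difference when 1 library was left out, and 8 in UWB1.289 under the rule for called genes. With the replicate block the members passing were 15, 16, 21 and 9 in these comparisons, and beyond the values given the block changed the calls of H2BC15 in OVCAR3 (adjusted p = 0.0963, edgeR), H1-3 between the lines with DMSO (0.0247) and H3C6 for the difference (0.0901). With no filter 30 members passed between the lines. The log2 ratio of class totals, olaparib over DMSO, moved without the highest member to -0.44 for H2B in OVCAR3 (-0.65 with it), -0.64 for H2A in UWB1.289 (-0.23 with it) and 0.60 for H4 in UWB1.289 (-0.90 with H4C3). The 40 members with too few counts, most of the H3 class among them, could not be tested.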
